A study of Mus musculus with 8 samples.

Results

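The MAP kinase phosphatases described here are 7 genes of the dual-specificity phosphatase family, Dusp1, Dusp2, Dusp4, Dusp5, Dusp6, Dusp10 and Dusp16. They were taken by name from the 14455 genes whose values could be read in all libraries, and all 7 passed the filter on low values in both experiments. The cells were mouse C57BL/6 CD4 T cells, activated in culture through CD3 and CD28 and grown towards the Th1 fate in 2 ng/ml IL-12 with IL-4 blocked by an antibody (5 µg/ml), and these conditions were shared by all 4 groups. In the first experiment, PCBP1 KD cells were transduced with a short hairpin RNA against Pcbp1, an RNA-binding protein that also carries iron to ferritin, and the control cells with a scrambled hairpin. Total RNA depleted of ribosomal RNA was sequenced from 2 libraries of each. In the second experiment, Th1 cells were treated with the iron chelator CPX or with its solvent DMSO, and polyA RNA was sequenced from 2 libraries of each. The sources used here give neither the hairpin sequence nor the dose and duration of CPX nor the time after transduction. Whether replicates were separate cultures or animals is not stated either, so the p-values measure only the spread between these libraries, which may be technical. The experiments differ in RNA selection as well as in treatment, so a level in one set beside a level in the other carries both differences.

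MAP kinases are switched on by phosphorylation of a threonine and a tyrosine in their activation loop, and the MAP kinase phosphatases remove both phosphates. Most are themselves made in response to the signal, so they act as negative feedback on ERK, p38 and JNK. Dusp1, Dusp2, Dusp4 and Dusp5 act in the nucleus, Dusp6 acts on ERK in the cytoplasm, and Dusp10 and Dusp16 prefer p38 and JNK. In T cells the family is known for shaping the ERK response to antigen receptor and cytokine signals.

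Pcbp1 itself was read at 15.1 and 16.1 RPM in PCBP1 KD libraries and at 44.0 and 51.7 RPM in scrambled libraries (reads per 1e+06 reads of the library), a 3.31-fold fall (log2 -1.73, SE 0.12, edgeR adjusted p = 3.18e-05). It was also lower in CPX libraries, 238 and 199 RPM, than in DMSO libraries, 506 and 538 RPM (log2 -1.26, SE 0.20, limma adjusted p = 0.00613). Assigned reads numbered 14174293 to 15518303 per knockdown library, and the CPX and DMSO libraries summed to 19193784 to 19662145 rescaled units, each standing for about 1.96 reads. Replicates correlated across genes at 0.992 in PCBP1 KD, 0.993 in scrambled, 0.954 in CPX and 0.985 in DMSO cells (Pearson, log2 scale). The CPX replicates stood apart from each other: 1773 genes differed more than 2-fold between them, against 524 between the DMSO replicates. The heat shock genes Hspa1a and Hspa1b together held 3.11% of CPX replicate 1 and 0.868% of CPX replicate 2. The T cell genes Cd3e, Cd4, Trac and Tbx21 were read in every library. Cd8a, the marker of another T cell lineage, was read at 67.1 and 6.92 RPM in PCBP1 KD replicates 1 and 2 and at 63.8 and 6.49 RPM in scrambled replicates 1 and 2, so it separated the replicate numbers and not the hairpins. Of 10 macrophage and monocyte markers, 3 could be read (Emr1, Cd68 and Itgam). Their summed level was 46.2 to 67.3 RPM in CPX libraries and 2.70 to 4.71 RPM in DMSO libraries, while Csf1r, Cd14 and Lyz2 matched no line that could be read. Of 6 dendritic cell markers 4 could be read, summing to 22.9 to 26.4 RPM in CPX libraries and 2.95 to 3.27 RPM in DMSO libraries. In CPX libraries Itgax stood at 13.3 and 21.7 RPM and Zbtb46 at 8.91 and 4.26 RPM, while Flt3 and Xcr1 stayed under 1 RPM. Mpo, the 1 neutrophil marker of 6 that could be read, stood at 7.19 and 5.35 RPM in CPX libraries, against 0.0509 and 0 RPM in DMSO libraries. Of 7 B cell markers 3 could be read, summing to 3.22 to 4.12 RPM in CPX libraries and 0.665 to 1.22 RPM in DMSO libraries. All 11 T and Th1 cell markers could be read. Ifng, the interferon gamma gene, was read at 24818 and 18990.1 RPM in PCBP1 KD libraries, against 50383 and 40954 RPM in scrambled libraries, and at 1106 and 4983 RPM in CPX libraries, against 14026 and 23804 RPM in DMSO libraries. The other 10 markers summed to 1168 and 1209 RPM in PCBP1 KD libraries, against 1366 and 1425 RPM in scrambled libraries. In CPX libraries they summed to 1904 and 1667 RPM, which overlapped the 1303 and 2071 RPM of DMSO libraries. Whether other cell types were present in the CPX cultures was not tested. The part of such cells and of the replicate difference in the results on CPX was not tested either. In bulk RNA, fewer cells of a type and less RNA per cell cannot be told apart.

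After Pcbp1 knockdown Dusp4, Dusp5 and Dusp10 rose 1.97-fold, 2.00-fold and 2.06-fold, and Dusp1 fell 1.42-fold, while Dusp2, Dusp6 and Dusp16 did not pass the test. After CPX Dusp1 and Dusp16 rose, by 4.13-fold and 1.89-fold, and Dusp6 and Dusp2 fell, by 6.81-fold and 2.72-fold. Dusp1 alone passed the test in both comparisons, and in opposite directions, where 25.0% of the genes tested in both passed in both. Of the 7 phosphatases 4 passed in the knockdown, against 56.0% of the 11575 genes tested there, and 4 passed after CPX, against 44.7% of 11466 genes. These shares are near those of all genes, so the counts do not set the family apart. The median log2 difference of the 7 was -0.03 in the knockdown, against 0.00 over all tested genes, and 0.92 after CPX, against -0.12 over all tested genes. The CPX median is the value of Dusp16, between 4 higher and 3 lower estimates, and it was 0.58 without CPX replicate 2 and 0.64 without DMSO replicate 1. The knockdown median is also that of Dusp16 and was 0.08 with limma. The groups did not overlap for 4 of 7 phosphatases in the knockdown and for 7 of 7 after CPX, against 78.5% and 76.3% of the tested genes.

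**Figure D1:**
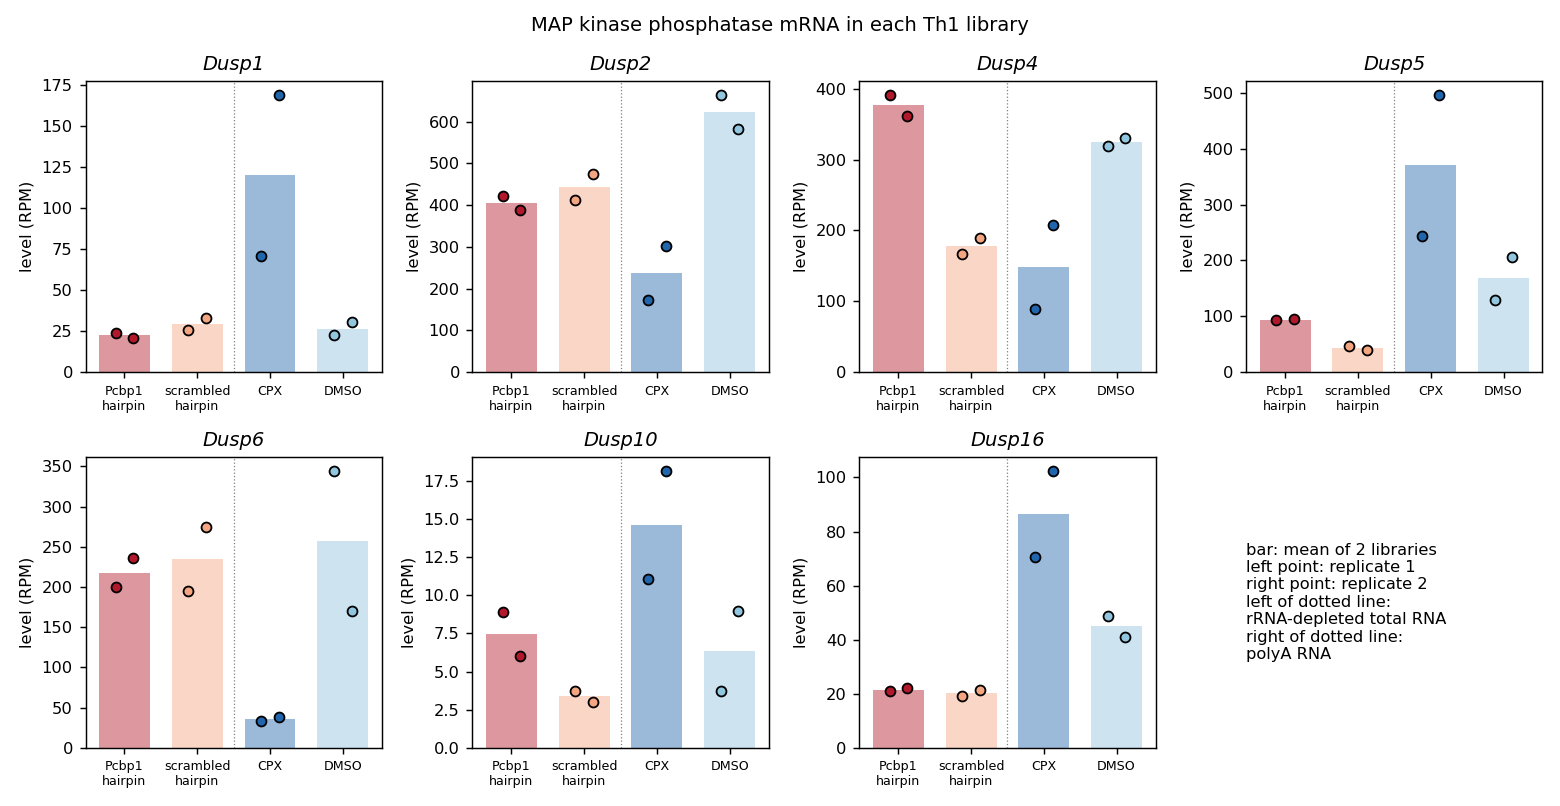
Level of each MAP kinase phosphatase in every library, in RPM, with 1 point per library and a bar from 0 to the mean of the 2 libraries of a group (Pcbp1 hairpin marks PCBP1 KD cells). Dusp6 sits at 32.9 and 37.6 RPM in CPX libraries, below the 345 and 170 RPM of DMSO libraries, and Dusp4 sits at 392 and 362 RPM in PCBP1 KD libraries, above the 166 and 189 RPM of scrambled libraries.

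The promoter sequences of 6 of the 7 genes were at hand (RefSeq, build GRCm38.p6, 250 bases before to 50 after the start of the gene), and 5 are shown. Dusp1, Dusp16, Dusp2 and Dusp6 are those that passed the test after CPX, Dusp1 and Dusp16 by rising and Dusp2 and Dusp6 by falling. Dusp5 rose in the knockdown, as did Dusp4 and Dusp10, and is shown for its pair of CArG boxes. Capitals mark every match to the motifs searched on both strands, which were AP-1 TGANTCA, CRE TGACGTCA, its shorter form TGACG, here called the short CRE, the E-box CACGTG, the hypoxia core ACGTG, NFAT GGAAAA, NF-kB (GGG and CC with 5 bases of any kind between) and the CArG box. A CRE contains the short CRE and an E-box contains the hypoxia core, so 1 place can match more than 1 motif. The counts were mapped to mm9, so these coordinates apply to the sequences alone.
Dusp1, chr17:26508423-26508722, minus strand: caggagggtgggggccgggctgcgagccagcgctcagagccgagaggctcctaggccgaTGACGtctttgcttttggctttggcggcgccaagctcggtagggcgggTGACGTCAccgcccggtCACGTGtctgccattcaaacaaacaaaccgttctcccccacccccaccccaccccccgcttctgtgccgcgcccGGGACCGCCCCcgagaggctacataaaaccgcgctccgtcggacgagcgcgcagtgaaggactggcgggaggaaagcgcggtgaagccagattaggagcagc
Dusp16, chr6:134792579-134792878, minus strand: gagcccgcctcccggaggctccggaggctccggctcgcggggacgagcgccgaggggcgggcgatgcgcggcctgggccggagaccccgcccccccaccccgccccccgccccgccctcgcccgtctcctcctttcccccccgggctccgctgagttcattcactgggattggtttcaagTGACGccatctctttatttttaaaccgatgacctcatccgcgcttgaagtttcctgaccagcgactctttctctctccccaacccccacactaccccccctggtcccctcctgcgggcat
Dusp5, chr19:53528895-53529194, plus strand: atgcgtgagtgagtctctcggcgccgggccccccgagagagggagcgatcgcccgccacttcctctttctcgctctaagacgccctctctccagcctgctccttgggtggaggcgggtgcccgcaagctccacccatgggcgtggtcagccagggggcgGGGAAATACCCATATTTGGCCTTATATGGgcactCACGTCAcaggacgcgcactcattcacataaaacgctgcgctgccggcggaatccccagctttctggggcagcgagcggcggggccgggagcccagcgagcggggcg
Dusp2, chr2:127335909-127336208, plus strand: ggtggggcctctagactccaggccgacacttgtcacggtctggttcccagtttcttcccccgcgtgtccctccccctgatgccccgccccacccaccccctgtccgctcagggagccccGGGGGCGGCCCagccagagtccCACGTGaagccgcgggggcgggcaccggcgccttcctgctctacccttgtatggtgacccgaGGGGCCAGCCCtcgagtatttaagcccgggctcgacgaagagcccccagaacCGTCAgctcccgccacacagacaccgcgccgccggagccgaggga
Dusp6, chr10:99262981-99263280, plus strand: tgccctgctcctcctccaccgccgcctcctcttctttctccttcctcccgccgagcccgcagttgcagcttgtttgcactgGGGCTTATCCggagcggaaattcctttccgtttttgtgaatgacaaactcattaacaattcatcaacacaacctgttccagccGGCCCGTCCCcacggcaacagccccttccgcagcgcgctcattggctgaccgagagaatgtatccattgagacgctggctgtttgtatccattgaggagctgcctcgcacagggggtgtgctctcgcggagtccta
The Dusp1 window holds a whole CRE whose first base lies at -143 from the start, a short CRE at -191 and an E-box at -126. A whole CRE occurs in 1.79% and an E-box in 7.15% of the 32851 promoters of the table. The Dusp5 window holds a pair of adjoining CArG boxes, the letters bound by serum response factor, at -82 and -72, and 1.63% of all promoters hold a CArG box. Beside them lies a short CRE at -55 that overlaps a hypoxia core at -57. The window of Dusp10, whose sequence is not shown, holds NF-kB letters at -84 and no CArG box or other match. Dusp4 had no window. Whether the CArG boxes bear on the rise of Dusp5 was not tested. The Dusp2 window holds an E-box at -109 and a short CRE at 5, the Dusp16 window holds only a short CRE at -70, and the Dusp6 window holds NF-kB letters at -169 and -86 and no other match. NF-kB letters, which 50.8% of all promoters carry, occur in 5 of the 6 windows, all but that of Dusp16. Neither the AP-1 nor the NFAT letters occur in any of the 6 windows. A match is a run of letters and not a measured site.

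**Figure D2:**
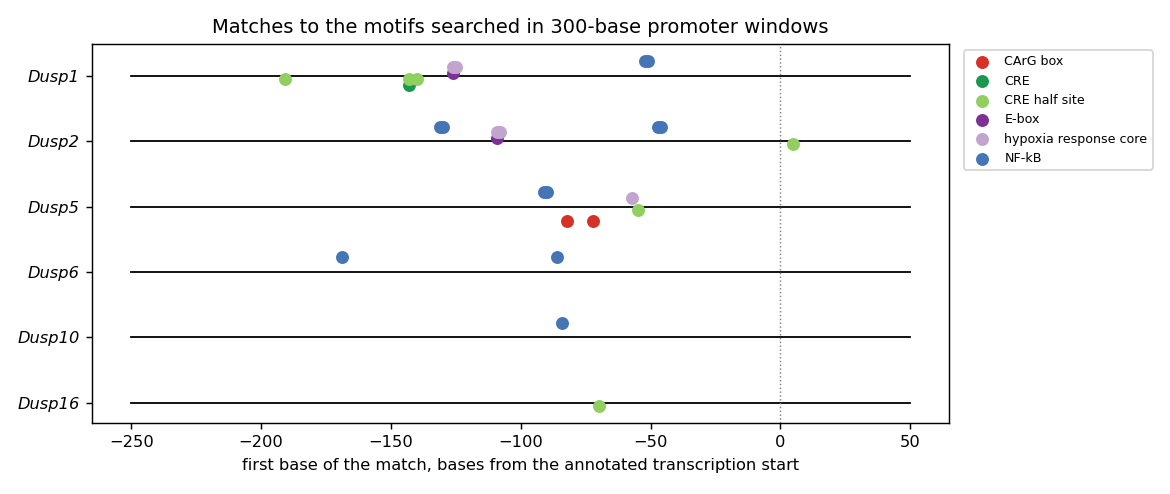
Matches to the motifs searched in the RefSeq promoter windows of 6 MAP kinase phosphatases, by distance in bases from the gene start, with 1 point per match and a dotted line at the start. The 2 CArG boxes of Dusp5 lie at -82 and -72, and the whole CRE of Dusp1 lies at -143.

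Dusp1 encodes MKP-1, a nuclear phosphatase of p38, JNK and ERK and an early response gene. It was read at 24.0 and 20.6 RPM in PCBP1 KD libraries, against 25.9 and 32.8 RPM in scrambled libraries. All PCBP1 KD values lay below both scrambled values, and the difference passed the test (log2 -0.50, SE 0.14, edgeR adjusted p = 0.0191). The call was lost without scrambled replicate 2 (log2 -0.32, adjusted p = 0.106) and without PCBP1 KD replicate 2 (log2 -0.43, adjusted p = 0.0627). After CPX, Dusp1 was read at 70.8 and 169 RPM in CPX libraries, against 22.4 and 30.5 RPM in DMSO libraries, and it rose (log2 2.05, SE 0.45, limma adjusted p = 0.0166). CPX replicate 2 was 2.39 times as high as CPX replicate 1. The call was lost without DMSO replicate 1 (log2 1.83, adjusted p = 0.0719) and with no filter on low values (adjusted p = 0.0745).

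In the GENCODE M21 annotation of GRCm38 the gene Ergic1 lies over Dusp1 on the other strand, and whether the authors' counting used strand is not given in the sources used here. Ergic1, a gene of the secretory pathway, moved against Dusp1 both times. It was read at 87.4 and 96.9 RPM in PCBP1 KD libraries, against 40.4 and 45.8 RPM in scrambled libraries (log2 0.99, edgeR adjusted p = 0.000116). It was read at 12.1 and 16.01 RPM in CPX libraries, against 47.8 and 107 RPM in DMSO libraries (log2 -2.32, limma adjusted p = 0.0104). Dusp5, Dusp10 and Dusp16 also have an overlapping gene on the other strand there, and Dusp2, Dusp4 and Dusp6 have none.

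Dusp2 encodes PAC-1, a nuclear phosphatase first known from activated T cells, and per base of transcript it led the family in 3 of the 4 groups. Its level was 422 and 388 RPM in PCBP1 KD libraries, against 412 and 473 RPM in scrambled libraries. The groups overlapped and the difference did not pass the test (log2 -0.24, SE 0.09, edgeR adjusted p = 0.0514). It lay close to the threshold, and 8 of 12 alternatives called it, among them DESeq2 (log2 -0.25, adjusted p = 0.0309). It was -0.34 without scrambled replicate 1 (adjusted p = 0.0180), -0.13 without scrambled replicate 2 (adjusted p = 0.302) and -0.13 with limma (adjusted p = 0.231). In CPX libraries Dusp2 was read at 173 and 303 RPM, against 664 and 582.2 RPM in DMSO libraries, and it fell (log2 -1.44, SE 0.30, limma adjusted p = 0.0144). The call was lost without DMSO replicate 1 (log2 -1.35, adjusted p = 0.0807), without DMSO replicate 2 (log2 -1.54, adjusted p = 0.0525) and with no filter (adjusted p = 0.0639).

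Dusp4 encodes MKP-2, a nuclear phosphatase of ERK and JNK, and it had the smallest adjusted p of the family in the knockdown. It was read at 392 and 362 RPM in PCBP1 KD libraries, against 166 and 189 RPM in scrambled libraries (log2 0.98, SE 0.08, edgeR adjusted p = 6.37e-05). The lower PCBP1 KD library stood well above the higher scrambled one, and the call held in all 12 alternative analyses. In CPX libraries Dusp4 was read at 88.5 and 208 RPM, against 319 and 330 RPM in DMSO libraries. Both CPX values lay below both DMSO values, but the replicates were 2.35-fold apart and the difference did not pass (log2 -1.25, SE 0.41, limma adjusted p = 0.0536). Without CPX replicate 1 the difference was -0.64, and without CPX replicate 2 it was -1.87. A fit with 1 CPX library leaves out the spread between the CPX replicates, so it cannot decide the call. The difference passed with quantile normalization (limma adjusted p = 0.0456) and with length and GC content taken out (0.0458). It was -1.28 without DMSO replicate 1 and -1.23 without DMSO replicate 2.

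Dusp5 encodes a nuclear phosphatase that acts on ERK alone. Its level was 93.0 and 94.5 RPM in PCBP1 KD libraries, against 47.5 and 39.7 RPM in scrambled libraries, and it rose (log2 1.00, SE 0.09, edgeR adjusted p = 0.000101). This call also held in all 12 alternatives. After CPX it was read at 244 and 497 RPM in CPX libraries, against 129 and 207 RPM in DMSO libraries. The groups did not overlap, but the difference did not pass the test (log2 1.09, SE 0.41, limma adjusted p = 0.0781). With TMM scaling, which removes a shift common to most genes, it was 1.22 and passed (adjusted p = 0.0416). Without CPX replicate 2 it was 0.58 (adjusted p = 0.271), and without DMSO replicate 1 it was 0.75 (adjusted p = 0.325).

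Dusp6 encodes MKP-3, the cytoplasmic phosphatase of ERK whose transcript is a widely used readout of ERK activity, and it had the largest change of the family after CPX. Its level was 32.9 and 37.6 RPM in CPX libraries, against 345 and 170 RPM in DMSO libraries (log2 -2.77, SE 0.37, limma adjusted p = 0.00421). The DMSO replicates were about 2-fold apart, yet the lower of them was several times the higher CPX library, and the call held in all 12 alternatives, with log2 values of -3.27 to -2.26. In the knockdown Dusp6 was read at 199.6 and 236 RPM in PCBP1 KD libraries, against 195 and 275 RPM in scrambled libraries. The groups overlapped and the difference did not pass (log2 -0.22, SE 0.16, edgeR adjusted p = 0.273). Its sign turned without scrambled replicate 2 (log2 0.06), and it was -0.45 without scrambled replicate 1. With no filter it passed (log2 -0.24, edgeR adjusted p = 0.00914). Without PCBP1 KD replicate 1 it was -0.09 (adjusted p = 0.667), and without PCBP1 KD replicate 2 it was -0.37 (adjusted p = 0.0920).

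Dusp10 encodes MKP-5, a phosphatase of JNK and p38 that limits cytokine output of T cells in mice, and it was the scarcest of the family. It rested on 138 and 86 reads in PCBP1 KD libraries and on 53 and 43 reads in scrambled libraries, which is 8.89 and 6.01 RPM against 3.74 and 3.0 RPM. The rise passed the test (log2 1.04, SE 0.25, edgeR adjusted p = 0.00909) and was lost without PCBP1 KD replicate 1 (log2 0.74, adjusted p = 0.0528). After CPX it was read at 11.0 and 18.2 RPM in CPX libraries, against 3.71 and 8.95 RPM in DMSO libraries. The groups did not overlap, but the DMSO replicates were 2.41-fold apart and the difference did not pass (log2 1.22, SE 0.50, limma adjusted p = 0.0987). It passed with quantile normalization (log2 1.39, adjusted p = 0.0414), and without DMSO replicate 1 it was 0.64 (adjusted p = 0.496).

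Dusp16 encodes MKP-7, a phosphatase of JNK and p38 that shuttles between nucleus and cytoplasm. Its level was 20.8 and 22.1 RPM in PCBP1 KD libraries, against 19.3 and 21.4 RPM in scrambled libraries, and the groups overlapped (log2 -0.03, SE 0.11, edgeR adjusted p = 0.844). In CPX libraries it was read at 70.5 and 103 RPM, against 48.9 and 40.9 RPM in DMSO libraries, and it rose (log2 0.92, SE 0.28, limma adjusted p = 0.0429). The call was lost without DMSO replicate 1 (log2 1.05, adjusted p = 0.164), without DMSO replicate 2 (log2 0.79, adjusted p = 0.270), without CPX replicate 2 (log2 0.65, adjusted p = 0.0697) and with no filter (adjusted p = 0.0901).

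**Figure D3:**
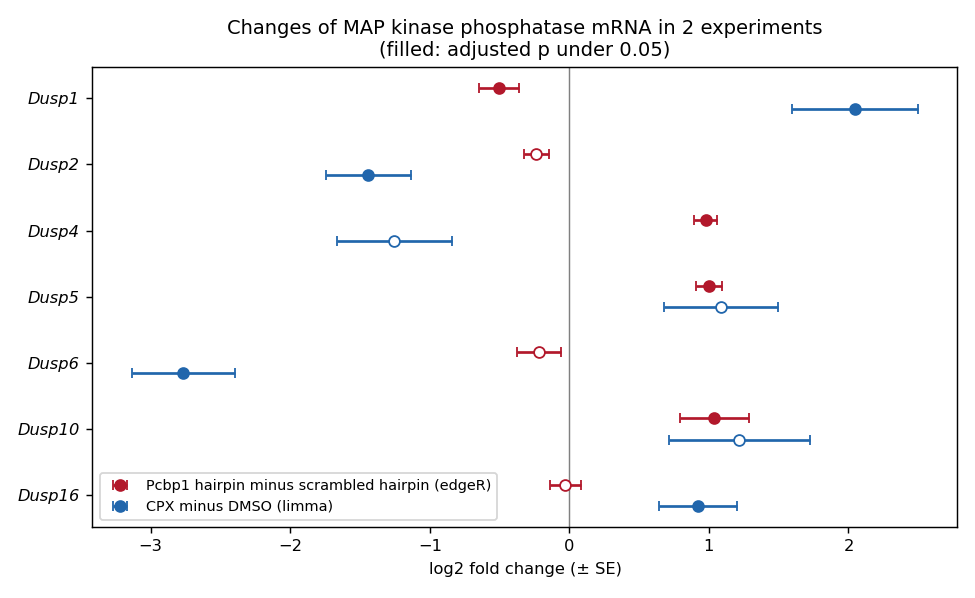
Log2 difference of each MAP kinase phosphatase in PCBP1 KD (Pcbp1 hairpin) cells against scrambled cells (edgeR) and in CPX cells against DMSO cells (limma), with bars of 1 SE and filled points for calls at an adjusted p under 0.05. Dusp4 stands at 0.98 in the knockdown and at -1.25 after CPX, and Dusp5 stands at 1.00 and at 1.09.

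The authors' deposited table for the knockdown gave Dusp2 a log2 fold change of -0.23 (adjusted p = 0.0354) and the other 6 phosphatases the same calls as here. For CPX the authors' deposited table placed all 7 under an adjusted p of 0.05, with Dusp4 at -1.09 (adjusted p = 0.0276), Dusp5 at 1.13 (adjusted p = 0.0207) and Dusp10 at 1.19 (adjusted p = 0.0336).

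The knockdown effect minus the CPX effect was tested in 1 limma fit over all 8 libraries, on log2(RPM + 0.5). The knockdown effect was read in total RNA and the CPX effect in polyA RNA. A difference of treatment and a difference of RNA selection between the experiments therefore cannot be told apart here. Of the 7 phosphatases 5 passed, against 51.3% of the 10430 genes tested. Dusp6 (log2 2.67, SE 0.46, adjusted p = 0.00276), Dusp4 (log2 2.34, SE 0.49, adjusted p = 0.00618) and Dusp2 (log2 1.32, SE 0.35, adjusted p = 0.0172) had a knockdown effect above their CPX effect, as had 35.2% of tested genes. Dusp1 (log2 -2.43, SE 0.55, adjusted p = 0.00859) and Dusp16 (log2 -0.84, SE 0.30, adjusted p = 0.0474) had one below it, as had 16.1%. For Dusp5 (log2 0.02, SE 0.49, adjusted p = 0.982) and Dusp10 (log2 -0.20, SE 0.61, adjusted p = 0.806) a difference was not shown. The median of all tested genes was 0.40 on this scale and 0.04 with TMM scaling, under which Dusp2 stood at 0.94 (adjusted p = 0.0464) and Dusp16 at -1.22. Dusp1, Dusp4 and Dusp6 passed in all 13 alternatives, while the call on Dusp2 was lost without scrambled replicate 1, PCBP1 KD replicate 1 or DMSO replicate 1 (adjusted p of 0.0574 to 0.0665) and with length and GC content taken out (0.0766), and the call on Dusp16 was lost without any 1 library of the scrambled, PCBP1 KD or DMSO groups (adjusted p of 0.0610 to 0.149).

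Per kilobase of the longest complete transcript, which allows levels of different genes to be set side by side, the order was Dusp2, Dusp4, Dusp6, Dusp5, Dusp1, Dusp16 and Dusp10 in PCBP1 KD cells, from 250 ± 15.2 to 2.67 ± 0.729 RPM per kb (SD, n = 2). No neighbours in that order overlapped. In scrambled cells Dusp6, at 84.0 ± 20.1 RPM per kb, stood above Dusp4, at 64.8 ± 5.94 RPM per kb, and Dusp5 and Dusp1 overlapped. In CPX cells Dusp5, at 149.8 ± 72.2 RPM per kb, and Dusp2, at 147 ± 56.7 RPM per kb, overlapped at the top, followed by Dusp1 and Dusp4, which overlapped too, then by Dusp16, Dusp6 and Dusp10. In DMSO cells Dusp2 led at 385 ± 35.8 RPM per kb, Dusp4, Dusp6 and Dusp5 followed with each neighbour overlapping the next, and Dusp1, Dusp16 and Dusp10 came last. Dusp6 thus had rank 6 of 7 in CPX cells and rank 3 in DMSO cells. Summed, the 7 transcripts took 1160 and 1128 RPM in PCBP1 KD libraries, against 869 and 1034 RPM in scrambled libraries. They took 691 and 1335 RPM in CPX libraries, against 1532 and 1370 RPM in DMSO libraries.

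All 7 phosphatases were higher in CPX replicate 2 than in CPX replicate 1, by 1.14-fold for Dusp6 to 2.39-fold for Dusp1, where the median gene was 0.10 higher on the log2 scale. Of tested genes 55.6% lay below the ratio of Dusp6 and 94.1% below that of Dusp1. All 7 lay between the 5th and 95th percentiles of tested genes (log2 -1.03 and 1.33). The share of all tested genes higher in CPX replicate 2 was not counted, so the 7 of 7 does not set the family apart. In the PCBP1 KD, scrambled and DMSO groups 3, 5 and 4 of the 7 were higher in replicate 2. Dusp6 was 0.494 times as high in DMSO replicate 2 as in DMSO replicate 1, a ratio below which 0.959% of tested genes fell. What sets the replicates apart was not tested.

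**Figure D4:**
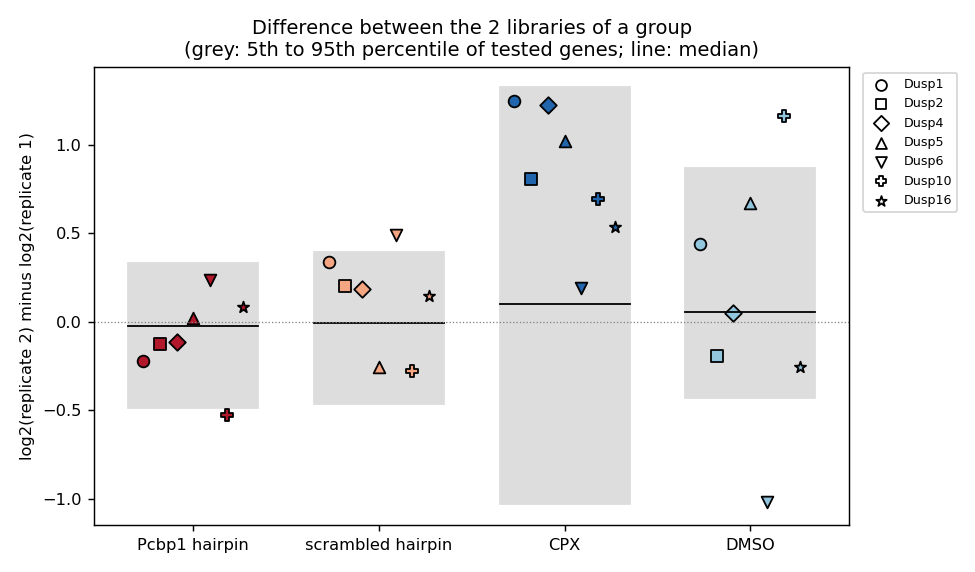
Log2 ratio of replicate 2 over replicate 1 for each MAP kinase phosphatase in each group, with a grey box from the 5th to the 95th percentile of all tested genes and a line at their median. The 7 points of the CPX group all lie above 0, from Dusp6 to Dusp1.

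The transcripts differ in length and in their AU-rich letters, the elements that mark short-lived messages. The longest transcripts run from 1617 bases for Dusp2 to 5104 bases for Dusp16. The pentamer ATTTA occurs in the 3′ UTR of all 7, and at least 1 copy occurs in 70.5% of 9244 tested genes with a 3′ UTR. Dusp1 and Dusp2 hold 4 copies each in short 3′ UTRs of 690 and 581 bases, the densest of the family at 5.80 and 6.88 per kb, and Dusp5 and Dusp6 hold 1 copy each. The longer form TATTTAT occurs 3 times in Dusp1 and once in Dusp2 and in no other of the 7, and 31.0% of tested genes hold it. Dusp1 rose and Dusp2 fell after CPX, and whether these letters bear on either change was not tested.

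By distance over the 8 libraries, with each gene centred within its experiment on the log2 scale, the gene most like Dusp5 among 10430 was Spry4 (distance 0.337) and the one most like Dusp6 was Spry1 (distance 0.420). Both encode Sprouty proteins, feedback inhibitors of the RAS and ERK route. Spry1 was read at 87.3 and 94.9 RPM in CPX libraries, against 791 and 550 RPM in DMSO libraries (log2 -2.85, SE 0.24, limma adjusted p = 0.00241). Spry4 was read at 4.0 and 3.92 RPM in PCBP1 KD libraries, against 1.90 and 1.47 RPM in scrambled libraries (log2 1.12, SE 0.24, edgeR adjusted p = 0.00598). The nearest genes of the others were Pcx for Dusp1 (0.482), Chmp7 for Dusp2 (0.162), Dhx16 for Dusp4 (0.226), Atxn1 for Dusp10 (0.435) and Zcchc3 for Dusp16 (0.131). The second nearest gene was Ppm1l for Dusp5 (0.428) and Car2 for Dusp6 (0.502). Within the family the closest pair was Dusp5 and Dusp10 (0.593), where Dusp10 had rank 24 among the genes nearest Dusp5 and Dusp5 had rank 6 for Dusp10. For the other phosphatases the closest member of the family had rank 748 to 3254. These distances are a description, since libraries of an experiment share their preparation.

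Among the kinases these phosphatases act on, the transcript of p38α rose and that of JNK1 fell in the knockdown. Mapk14, which encodes p38α, was read at 59.0 and 61.2 RPM in PCBP1 KD libraries, against 21.4 and 24.4 RPM in scrambled libraries (log2 1.28, edgeR adjusted p = 5.08e-05). Mapk8, which encodes JNK1, fell in the knockdown (log2 -0.48, edgeR adjusted p = 0.00488). After CPX Mapk14 fell to 26.7 and 46.2 RPM in CPX libraries, against 70.8 and 110 RPM in DMSO libraries (log2 -1.32, limma adjusted p = 0.0346), and Mapk9, which encodes JNK2, fell too (log2 -1.52, adjusted p = 0.0301, and -0.99 without CPX replicate 1). Both calls were lost without DMSO replicate 1 (adjusted p = 0.0714 for Mapk14 and 0.152 for Mapk9), without DMSO replicate 2 (0.221 and 0.121) and with no filter (0.10 and 0.0904), and for Mapk14 also without CPX replicate 1 (0.122). Mapk8 stood at 0.60 after CPX (limma adjusted p = 0.106). Mapk3, which encodes ERK1, did not pass in the knockdown (log2 0.64, edgeR adjusted p = 0.132) or after CPX (log2 0.06, limma adjusted p = 0.931). Its level was close to the filter in the knockdown experiment, at 2.84 and 2.59 RPM in PCBP1 KD libraries, against 1.13 and 2.09 RPM in scrambled libraries.

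The rest of the pathway was followed through 9 lists of genes, and in the knockdown every count is from edgeR and is to be read against 29.3% of tested genes that rose and 26.7% that fell. Of 15 other dual-specificity phosphatases 3 rose and 4 fell, and the largest change was that of Dusp3, a small phosphatase of ERK and JNK, at 6.64 and 6.08 RPM in PCBP1 KD libraries, against 1.06 and 1.61 RPM in scrambled libraries (log2 2.14, SE 0.26, adjusted p = 0.000319). Dusp7, a cytoplasmic relative of Dusp6, rose as well (0.65), and Dusp12 (-0.41) and the mitochondrial phosphatase Ptpmt1 (-0.57) fell. Of 9 MAP kinases 5 rose and 2 fell, with Mapk6 at 0.73 and Mapk7, which encodes ERK5, at 0.88. Of 6 MAP kinase kinases 4 rose and 0 fell: Map2k1, the activator of ERK, at 0.49, Map2k3, an activator of p38, at 1.18, Map2k5 at 0.59 and Map2k7, an activator of JNK, at 1.05. Of 17 upstream kinases 10 rose and 2 fell, among them Map3k1 (1.2), Map3k5 (0.82) and Map3k11 (1.47), which rose, and Map3k8 (-0.51), which fell. Of 14 RAS proteins, exchange factors and scaffolds 6 rose and 4 fell, with Sos2 at 0.69, Ksr1 at 0.58, Rras2 at -0.86 and Lamtor3 at -0.81. Of 12 Sprouty, SPRED and RasGAP inhibitors 8 rose and 0 fell, with Spred2 at 1.39, Rasa1 at 0.78 and Rasal3 at 0.68. Spry2 of this list was read at 0.988 and 0.559 RPM in scrambled libraries, and Dusp18 of the other dual-specificity phosphatases at 0.494 and 0.279 RPM. Both passed the filter through the PCBP1 KD libraries alone, so they could only be tested as rises and add no weight to the counts. Of 27 serum response and ETS factors and ERK response genes 16 rose and 2 fell, led by Elk3 (1.56), Elk4 (1.37), Mef2d (1.34) and Srf (1.28), the serum response factor itself. This list, below called the ERK response list, mixes such factors with response genes, and 9 of its 27 genes were not called. The genes named from it here are all factors, so its rises are not a count of ERK response genes alone. Of 9 other phosphatases of MAP kinases 5 rose and 0 fell, with the catalytic subunit Ppp2cb at 1.75, Ppp2r1a at 1.46, Ppm1b at 1.38 and Ptpn7 at 0.22. Of 10 kinases activated by MAP kinases 0 rose and 2 fell, Mapkapk3 (-0.35) and Mapkapk5 (-0.43). At an unadjusted p under 0.05, 1 MAP kinase kinase, 0 of the Sprouty, SPRED and RasGAP list and 1 of the other phosphatases fell, 0 of the kinases activated by MAP kinases rose, and DESeq2 likewise called none of these. Without scrambled replicate 2 the falls among other dual-specificity phosphatases numbered 2, that of Dusp12 not among them (adjusted p = 0.0961), and the rises among the Sprouty, SPRED and RasGAP inhibitors numbered 5. Without PCBP1 KD replicate 1 the falls were 2 and 1 in these lists, and when either scrambled replicate was left out, 1 upstream kinase fell in place of 2. Without PCBP1 KD replicate 2 the rises among other phosphatases numbered 3, and Ptpn7 was lost there (adjusted p = 0.180) and without scrambled replicate 1 (0.175). With transcript length and GC content taken out, the calls on Ksr1 (log2 -0.01), Ptpn7 (log2 -0.05), Dusp7, Dusp12, Rasal3 and Spry4 were lost (limma adjusted p of 0.0645 to 0.872). The list medians ran from -0.08 for the kinases activated by MAP kinases to 0.64 for the MAP kinases, against 0.00 over all tested genes.

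After CPX the lists are to be read against 19.9% of tested genes that rose and 24.8% that fell in limma. Of 16 other dual-specificity phosphatases 4 rose and 5 fell. Dusp8, a phosphatase of JNK and p38, rose to 15.4 and 28.1 RPM in CPX libraries, against 1.98 and 1.48 RPM in DMSO libraries (log2 3.27, SE 0.41, limma adjusted p = 0.0037), and Dusp7 (-2.08), Dusp12 (-2.61) and Ptpmt1 (-2.22) fell. Dusp7, like Dusp6 a cytoplasmic phosphatase of ERK, was read at 7.55 and 6.24 RPM in CPX libraries, against 24.4 and 38.3 RPM in DMSO libraries, and its call was lost without DMSO replicate 2 (adjusted p = 0.0742). Of 10 MAP kinases 2 rose, Mapk12 (4.21) and Nlk (1.24), and 3 fell, with Mapk7 at -1.03. Of 6 MAP kinase kinases 0 passed, with 1 lower at an unadjusted p under 0.05, and Map2k7 came closest (log2 -0.74, limma adjusted p = 0.0607). Of 19 upstream kinases 7 rose and 5 fell. Araf, a kinase that feeds ERK, fell to 16.2 and 18.9 RPM in CPX libraries, against 59.4 and 63.1 RPM in DMSO libraries (log2 -1.78, SE 0.25, limma adjusted p = 0.00478). Taok2 (-1.32) fell and Map3k9 (2.10) rose. The call on Araf was lost without DMSO replicate 1 (adjusted p = 0.0520) or DMSO replicate 2 (0.0564). Of 17 RAS proteins, exchange factors and scaffolds 3 rose and 3 fell, with Rasgrp4 at 3.0, Rasgrp2 at 2.71, Mapk8ip1 at 2.40 and Hras1 at -1.97. Of 13 Sprouty, SPRED and RasGAP inhibitors 4 rose and 2 fell, with Spred3 at 2.68 and Spred2 at 1.60 against Spry1 at -2.85 and Pebp1 at -1.59. Among the genes named, Mapk12, Map3k9, Rasgrp4, Mapk8ip1 and Spred3 lay under 1 RPM in both DMSO libraries, Mapk8ip1 at 0.102 RPM in each. These genes and the upstream kinase Map3k6 (0.356 and 0.307 RPM in DMSO libraries) passed the filter through the CPX libraries alone. They could only be tested as rises. The counts given here include the rises of those named, which add no weight. Their log2 values depend on the 0.5 added to each RPM. Of 10 kinases activated by MAP kinases 3 rose, Rps6ka2 (2.31), Mknk2 (1.89) and Rps6ka5 (1.54), and 0 fell, with 1 lower at an unadjusted p under 0.05. Of 27 serum response and ETS factors and ERK response genes 8 rose and 4 fell, with the AP-1 genes Fosb (5.84), Fosl2 (2.73) and Jun (2.45) higher and Myc (-4.78) lower. Of 9 other phosphatases of MAP kinases 0 passed, with 1 higher at an unadjusted p under 0.05, Ppp2ca (log2 0.58, limma adjusted p = 0.0536). These counts depended on which libraries entered. Without DMSO replicate 1 the rises and falls numbered 1 and 3 for other dual-specificity phosphatases, 1 and 0 for MAP kinases, 0 and 1 for upstream kinases and 2 and 1 for the Sprouty, SPRED and RasGAP list, with 1 fall in the RAS list and in the ERK response list and 1 rise among the kinases activated by MAP kinases. Without DMSO replicate 2 they numbered 2 and 2, 1 and 0, and 3 and 0 in the first 3 of these lists, with 0 falls in the RAS list and 2 in the ERK response list. Without CPX replicate 1 the falls were 3 among other dual-specificity phosphatases, 3 among upstream kinases and 2 in the ERK response list, and 4 MAP kinases, 1 MAP kinase kinase and 2 other phosphatases rose. Without CPX replicate 2 the falls were 3 among MAP kinase kinases and 7 in the RAS list, 1 other phosphatase rose, and when either CPX replicate was left out, 1 kinase activated by MAP kinases fell. Of the genes named, Mapk7, Nlk, Rps6ka5 and Taok2 were lost without either DMSO replicate (adjusted p of 0.102 to 0.263), Map3k9, Rasgrp2, Mknk2 and Pebp1 without DMSO replicate 1 (0.0519 to 0.157), Hras1 without DMSO replicate 2 (0.0535) and Mknk2 without CPX replicate 2 (log2 1.10, adjusted p = 0.169). The list medians ran from -0.20 for the MAP kinase kinases to 0.34 for the ERK response list, against -0.12 over all tested genes.

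**Figure D5:**
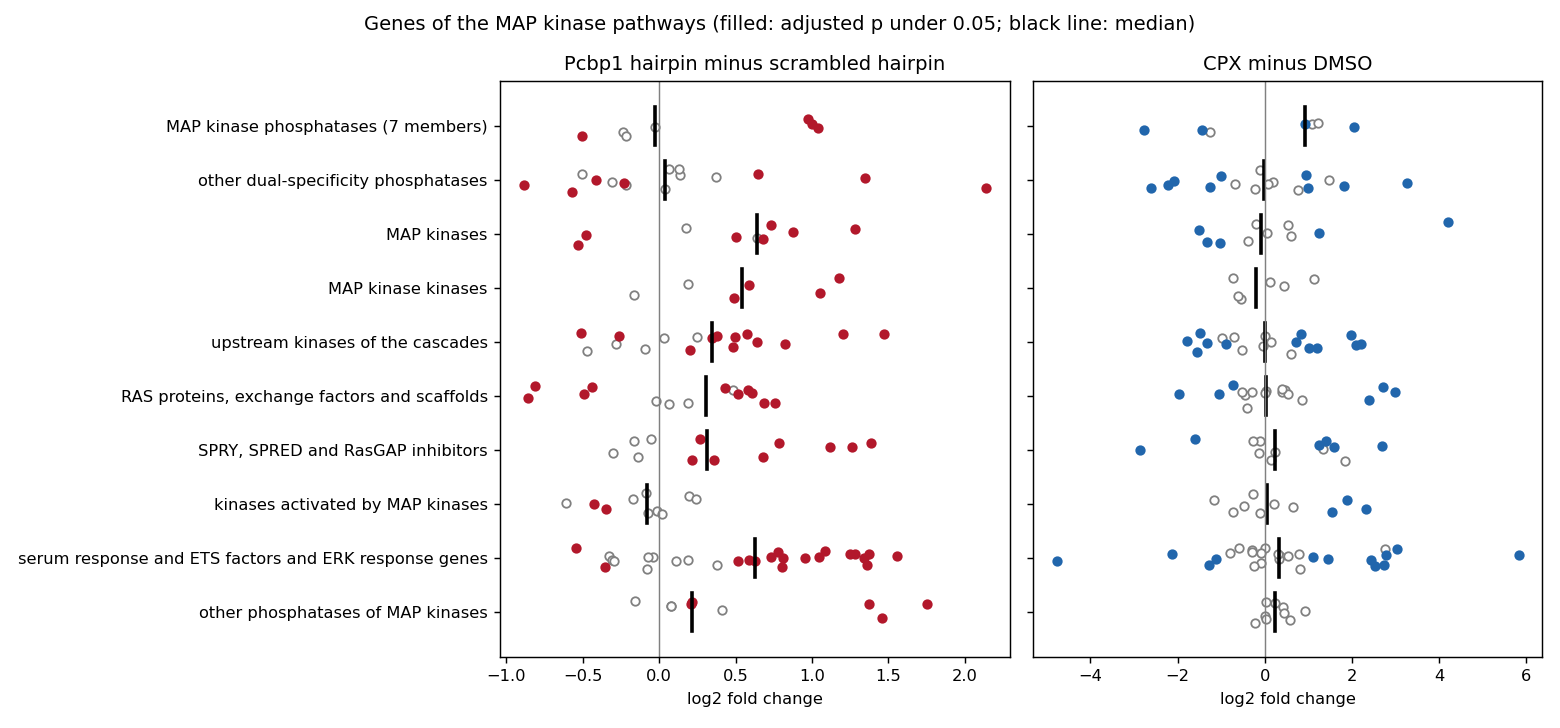
Log2 difference of each tested gene of each pathway list in PCBP1 KD (Pcbp1 hairpin) cells against scrambled cells (edgeR, left) and in CPX cells against DMSO cells (limma, right), on separate scales, with filled points for calls at an adjusted p under 0.05 and a black line at the list's median. Of 27 serum response and ETS factors and ERK response genes, taken as 1 list, 16 rose in the knockdown and 8 after CPX.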

How the data were processed

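RNA sequencing reads were assigned to genes by the authors with cutadapt, STAR, HTSeq and DESeq on mm9, per the submitters' processing notes, with no versions given. In the deposited table of library values the knockdown columns hold raw counts. Its CPX columns hold a score, counts multiplied by a factor of about 1/1.96 and rounded by the authors, with no whole reads to recover; whether that factor is the same in each library is not given in the sources used here. These units differ from the RPM that the table's name gives. The authors' deposited result tables hold a mean signal per gene, log2 fold changes, a Wald score and p-values from DESeq2, per the file headers. Row labels in the deposited table are displaced after 1 constant line, so 14805 lines with a value of at least 10 were matched to genes by the authors' mean signals (relative tolerance 2e-09 for the knockdown, absolute tolerance 1.2 for CPX), of which 14455 matched exactly 1 gene. All 7 phosphatases lie before that line and carried their own labels.

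RPM was computed as a value over its library total times 1e+06. The genes tested reached 1 RPM in 2 or more of the 4 libraries of an experiment. Tests were run in R 4.3.3, with edgeR 4.0.16 (quasi-likelihood, TMM) on the knockdown counts and with limma 3.58.1, with a variance trend, on log2(RPM + 0.5) for CPX and for the difference of effects, whose fold changes understate those of low genes. A call is a Benjamini-Hochberg adjusted p under 0.05 over all tested genes, and SE is that of the log2 difference, worked back from the F statistic for edgeR. Counting error matters most for low genes such as Dusp10, and the number of libraries limits the precision. Up to 4 called genes with the smallest p were named per list, the single best where none was called, and the main MAP kinases always, except for genes that are not reported here. The phosphatases and the pathway lists were chosen with earlier results of these data known. Alternatives were other scalings, filters and pseudocounts, DESeq2 1.42.0, a replicate block, leaving out each library, and, chosen after seeing the data, limma with transcript length and GC content taken out. A fit with a library left out takes no spread from the group that keeps 1 library, so a pass gained there adds no support. The tests were also run on simulated counts with 1 fixed spread for every gene of both experiments. Of 100 genes changed by a log2 of 1, 90 were recovered for the knockdown and 92 for CPX, with 10 and 14 false calls. The spread between the CPX replicates did not enter, so these figures do not show how the CPX test fares at that spread.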

Additional observations from a re-analysis of the deposited data

How the results depend on the processing

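The calls on Dusp4 and Dusp5 in the knockdown, on Dusp6 after CPX, and on Dusp1, Dusp4 and Dusp6 for the difference of effects held in all 12 or 13 alternatives run. The limma fit over all 8 libraries is not among these alternatives, and its knockdown effect was called for no phosphatase. There Dusp4 stood at 1.08 (adjusted p = 0.0569), Dusp5 at 1.10 (0.0555), Dusp10 at 1.02 (0.125) and Dusp1 at -0.38 (0.505). The number of phosphatases called after CPX, 4, was 1 with no filter on low values and 1 to 5 with each library left out (1 without DMSO replicate 1 and 2 without DMSO replicate 2). The number called for the difference, 5, was 3 to 5 with each library left out (3 without scrambled, PCBP1 KD or DMSO replicate 1). All genes called after CPX, 5124, numbered 2108 to 5809 with each library left out (2108 without DMSO replicate 1 and 2354 without DMSO replicate 2). Some values turned their sign. In the knockdown these were Dusp16 with limma (0.0783) and with a library left out (-0.106 to 0.0533), and Dusp6 with a library left out (-0.447 to 0.0554, without scrambled replicates 1 and 2 in turn). With length and GC content taken out, the called rises of Ksr1 (0.58) and Ptpn7 (0.22) were lost and turned to -0.0148 (adjusted p = 0.872, limma) and -0.0525 (0.567), and Mapk9, not called, turned to -0.0393. Dusp16 passed there (-0.40, limma adjusted p = 0.0181), and the calls on Dusp7, Dusp12, Rasal3 and Spry4 were lost (0.0645 to 0.157). Rises of upstream kinases numbered 4 there and 10 in the main analysis, and with DESeq2 those of the Sprouty list numbered 5 and those of other phosphatases 3, against 8 and 5. After CPX, Mapk3 turned with a library left out (-0.46 to 0.57). For the difference, Dusp5 turned with a pseudocount of 2 (-0.00374), TMM (-0.36), quantile normalization (-0.14), length and GC content taken out (-0.59), and with a library left out (-0.50 to 0.53), as did Dusp10 with a library left out (-0.78 to 0.39). The cause was not tested. The calls split into 3396 higher and 3086 lower genes in the knockdown, against 4003 and 2502 with limma, and into 3671 and 1675 for the difference, against 2851 and 2444 with TMM and 2784 and 2602 with quantile normalization. Replicate numbers are shared by the groups, but the labels do not pair them (correlation of same-numbered deviations 0.289 in the knockdown and 0.101 for CPX, 2 pairs each). With a replicate block all 7 phosphatases were called after CPX and 7348 genes in the knockdown, Dusp2 (adjusted p = 0.0214, edgeR) and Dusp6 (0.0201) among them. For the difference the block left 4 phosphatases called, without Dusp16 (adjusted p = 0.0797, limma). Dusp10 rests on 43 to 138 reads a library, which limits its precision.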
